A study of Mus musculus with 2 samples.

Results

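The gasdermin family was read in 2 pools of mouse gut epithelial cells, 1 from WT mice and 1 from Lrrc19 KO mice. Its members are all probe sets (groups of short probes that report 1 transcript or several alike) for which any gene symbol in the platform annotation begins with Gsdm. There are 19 of them among the 45037 probe sets of the array that are not controls, and they carry 10 gasdermin symbols out of 19324 on the array. Of these probe sets, 15 report 1 gene and 4 report several gasdermin genes, which are named together throughout. The family was chosen by its log2 differences between these same pools, so all differences are given as descriptions, with no test. Each pool held equal amounts of RNA from 5 C57BL/6 mice (2 males and 3 females, 6 weeks old, kept free of specific pathogens), either WT or with the Lrrc19 gene knocked out, and was hybridized to 1 Affymetrix array. Cells had been released from the intestine with EDTA, and magnetic beads had then taken out T cells (CD4 or CD8), macrophages, dendritic cells, and B cells. The labels do not say which part of the intestine was used. The comparison asks how the loss of LRRC19, a leucine-rich repeat receptor of gut epithelium, goes with transcript levels in these cells. With 1 array per genotype the spread between mice is unknown, and the values compare these pools only.

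Gasdermins are proteins that form pores in membranes. An amino-terminal domain makes the pore, and a carboxy-terminal domain holds it back until a protease cuts the link between them. Pores in the plasma membrane release interleukins and can end in a lytic form of cell death called pyroptosis. In the mouse, GSDMD is cut by inflammatory caspases and GSDME by executioner caspases and granzyme B, the GSDMA genes are known from skin and the upper digestive tract, and the GSDMC genes, a row of close copies, are known from the differentiated epithelium of the intestine, where type 2 cytokines raise them.

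The genes with the largest differences belong to the row of Gsdmc copies, for which RefSeq (GRCm38.p6) lists 7 genes on chromosome 15, 3 of them transcribed pseudogenes. Promoters in the RefSeq table were matched by symbol, which gave that of Gsdme among the 10 symbols measured and, among gasdermin genes with no probe set named for them here, those of Gsdmc3 in the Gsdmc row and of Gsdma3. The windows of Gsdme, which was lower in KO, and of Gsdmc3, from the row of Gsdmc2, are printed from 250 bases before the transcription start up to it, 5′ to 3′, and capitals mark CG dinucleotides. That of Gsdme lies at chr6:50261770-50262019 on the minus strand and that of Gsdmc3 at chr15:63878559-63878808 on the minus strand.
Gsdme: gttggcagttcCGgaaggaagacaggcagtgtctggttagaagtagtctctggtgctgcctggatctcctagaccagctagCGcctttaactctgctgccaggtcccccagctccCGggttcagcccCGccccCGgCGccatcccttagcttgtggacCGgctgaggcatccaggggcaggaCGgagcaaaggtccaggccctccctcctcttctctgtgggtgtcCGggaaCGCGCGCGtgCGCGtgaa
Gsdmc3: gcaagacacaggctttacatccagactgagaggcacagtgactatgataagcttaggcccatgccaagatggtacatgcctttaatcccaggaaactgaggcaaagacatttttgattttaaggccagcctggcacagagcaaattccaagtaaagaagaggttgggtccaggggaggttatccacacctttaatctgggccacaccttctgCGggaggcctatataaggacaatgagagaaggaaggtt
The Gsdme window held 15 CG dinucleotides and 64% G or C, and the Gsdmc3 window held 1 and 47.6%. That of Gsdma3, not printed because its branch was hardly measured, held 1 and 53.6%. The median over 32851 promoter windows of the same length was 6 CG dinucleotides and 52.4% G or C. None of the patterns searched on both strands was found in any of the 3 windows. They were a STAT6 pattern (in 5.85% of all windows), TTCNNNGAA (a STAT pattern, 7.02%), TTTATNG (a CDX pattern, 9.81%), and TATAAA (12.4%). The absence of a match says only that these letters are not in these windows.

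The values are intensities in arbitrary units, and an intensity is not comparable between probe sets as an amount of transcript. The files hold no detection calls, so a floor was set at the median of all probe sets on both arrays, 127. Of the 19 gasdermin probe sets, 9 reached it in at least 1 pool, 8 of them in both, and 10 were under it in both pools. Of the 9, 2 were at least 2-fold higher in the Lrrc19 KO pool (Gsdmc2 and Gsdmcl-ps), 1 was at least 2-fold lower (Gsdme), and 6 differed by less. Over all 23611 probe sets that reached the floor, 0.953% were at least 2-fold higher and 0.457% at least 2-fold lower. Because the family was chosen with these differences known, nothing is read from its counts against these shares. The counts of 2 higher and 1 lower became 2 and 0 when the arrays were centred on control genes, and 1 and 2 when they were centred on the hybridization spike-ins (transcripts added to each sample before hybridization).

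**Figure D1:**
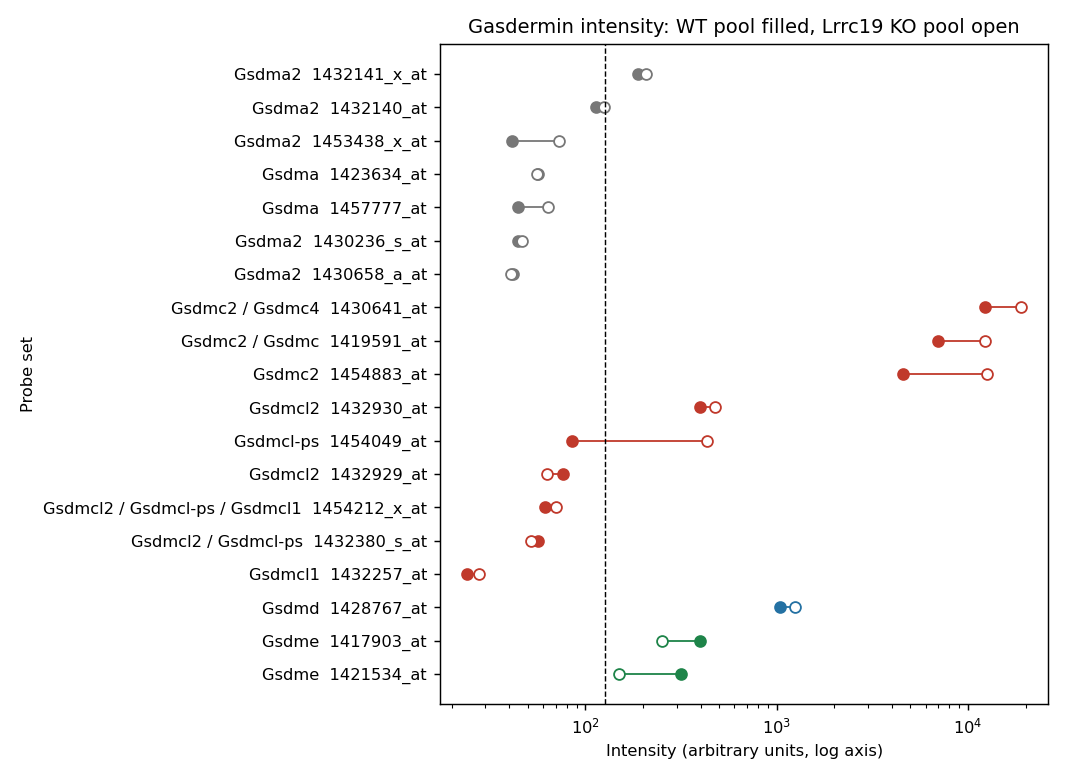
Intensity of each of the 19 gasdermin probe sets (log axis, arbitrary units) for WT (filled) and Lrrc19 KO (open), coloured by branch of the family. Each point is 1 array, so there are no error bars, and a dashed line marks the floor at 127. The 3 probe sets that hold Gsdmc2 lie farthest to the right and were all higher in KO, while both of Gsdme were lower.

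Gsdmc2, one of the protein-coding copies, was higher in the Lrrc19 KO pool on the probe set that reports it alone. Its intensity was 4563 for WT and 12601 for KO, which is 2.76-fold higher (log2 difference 1.47, KO minus WT). The other 2 probe sets that hold Gsdmc2 also report a second copy. That of Gsdmc2 and Gsdmc was at 6971 in WT and 12323 in KO (1.77-fold higher, log2 difference 0.82). That of Gsdmc2 and Gsdmc4 was at 12214 in WT and 18886 in KO (1.55-fold higher, log2 difference 0.63). All 3 were thus higher in KO, by amounts that differed by 0.64 and 0.84 on the log2 scale between the probe set of Gsdmc2 alone and the shared ones. Close copies can share a probe set's signal, so a value for Gsdmc or Gsdmc4 alone cannot be given. The highest value on the KO array was 25842, and whether signals near the top of the scale are compressed was not tested.

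Among all 23611 probe sets at the floor, the log2 difference of Gsdmc2 held place 67 from the largest increase. The robust SD of the log2 difference over the 12518 genes that reached the floor was 0.27.

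**Figure D2:**
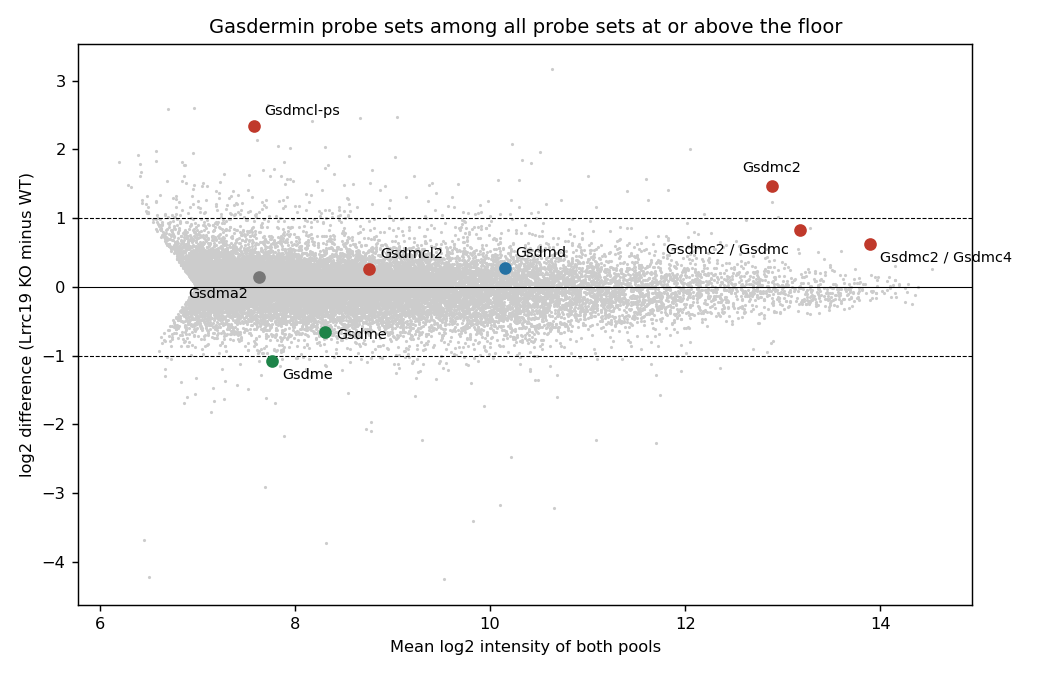
Log2 difference (Lrrc19 KO minus WT) against mean log2 intensity of both pools for all 23611 probe sets that reached the floor (grey), with the 9 gasdermin probe sets in colour. Dashed lines mark 2-fold. The 3 probe sets that hold Gsdmc2 lie at the bright end and above 0, both of Gsdme lie below 0, and Gsdmcl-ps is drawn at its measured difference, although its WT value was under the floor.

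Of the 3 transcribed pseudogenes in the Gsdmc row, Gsdmcl-ps differed most. Its own probe set was at 84.8 in WT, under the floor, and at 431 in KO, which makes it at least 3.38-fold higher when the WT value is set to the floor. It reached the floor through the KO pool alone. On the log2 scale this bound is 1.76. The 2 probe sets that report Gsdmcl-ps together with other pseudogenes did not show this. That of Gsdmcl2 and Gsdmcl-ps read 56.6 in WT and 52.0 in KO, and that of Gsdmcl2, Gsdmcl-ps, and Gsdmcl1 read 61.9 and 70.2, all under the floor. The difference of Gsdmcl-ps therefore rests on 1 probe set.

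Among the other gasdermin pseudogenes of the row, only Gsdmcl2 reached the floor, and there it differed little between the pools. Gsdmcl2 was at 396 in WT and 476 in KO on its brighter probe set (1.20-fold higher) and under the floor in both pools on the other (76.2 and 63.4). Gsdmcl1 did not reach the floor (24.2 and 27.9). The nearest genes on either side of the row did not share the size of these differences. On the Gsdmc side lie the long noncoding RNAs Gm20740 (log2 difference -0.10) and 4930449C09Rik (0.15). On the Gsdmcl-ps side lie Cyrib, which binds the GTPase RAC1 (-0.14), and the ARF regulator Asap1 (0.16). The pseudogene 1700065I16Rik, between Gsdmc and Gsdmc2, was at 650 in WT and 772 in KO (0.25). Within the row, differences above 2-fold were thus measured at Gsdmc2 and Gsdmcl-ps, with Gsdmcl2, which lies between them, at 0.27.

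**Figure D3:**
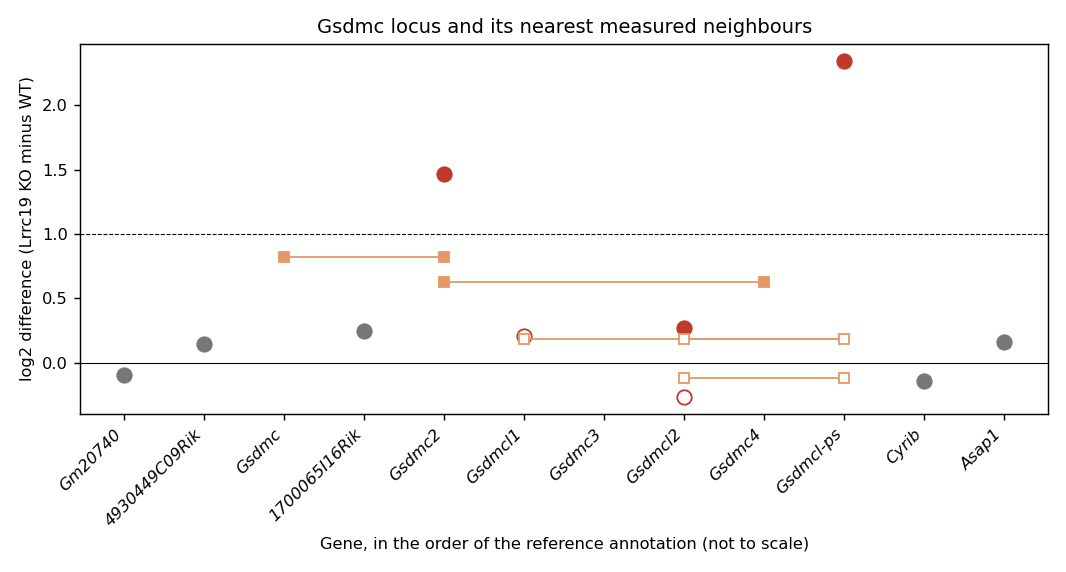
Log2 difference (Lrrc19 KO minus WT) of every probe set of the Gsdmc row on chromosome 15, with the nearest measured neighbours (grey), in the order of the RefSeq annotation and not to scale. Circles are probe sets of 1 gene, squares joined by a line are probe sets of several genes, and open symbols were under the floor in both pools. Gsdmc2 (1.47) and Gsdmcl-ps lie above the dashed 2-fold line, the latter drawn against a WT value under the floor, and the neighbours lie between -0.14 and 0.25.

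Gsdmd, the gasdermin that executes pyroptosis downstream of inflammasomes, differed by little. Its single probe set was at 1036 in WT and 1250.3 in KO, which is 1.21-fold higher. This log2 difference of 0.27 equals the robust SD over all genes, and its sign depends on the scaling, since it was -0.23 when the arrays were centred on the spike-ins. The log2 difference of Gsdmd lay 1.19 below that of Gsdmc2, a gap that a constant scaling error cannot change. Its neighbours on chromosome 15 were at log2 differences of 0.42 (Zc3h3), -0.23 (Naprt), and -0.40 (Eef1d), with Rhpn1 under the floor.

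Gsdme ran the other way from Gsdmc2, and both of its probe sets read lower in the Lrrc19 KO pool. The brighter one was at 398 in WT and 252 in KO (1.58-fold lower, log2 difference -0.66). The other was at 316 in WT and 149 in KO (2.12-fold lower, log2 difference -1.08), at place 78 of 23611 from the largest decrease. The pair differed by 0.42 in its log2 differences. Over the 3099 genes with exactly 2 probe sets at the floor, this gap had a median of 0.19 and a 90th percentile of 0.50, and that of Gsdme stood at percentile 84.4. Both probe sets stayed below 0 under all 5 scalings, with -0.56 and -0.98 when the arrays were centred on control genes, where neither passed 2-fold. Beside Gsdme on chromosome 6, the scaffold gene Mpp6 was also lower (496 in WT and 312 in KO), and the lipid-binding gene Osbpl3, on the other side, was higher (385 and 515). The next gene there, the cytochrome c gene Cycs, was alike in both pools (9178 and 9157), and Npy was under the floor.

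The Gsdma branch was hardly measured in these cells. Gsdma was under the floor on both probe sets (56.6 in WT and 55.6 in KO, and 44.5 and 64.1). Of the 5 probe sets of Gsdma2, 4 were under the floor in both pools. The remaining one, of a kind that can match several transcripts, was at 188 in WT and 208 in KO. By its higher value it was the member nearest above the floor. Nearest below the floor was another probe set of Gsdma2 (114 and 125). The 6 probe sets of this branch under the floor had values from 40.9 to 125, and their differences have no meaning beyond that. Of the neighbours of this branch on chromosome 11, Psmd3 was at 1194 and 1023 and Ikzf3 at 130 and 128, and Zpbp2 and Csf3 were under the floor.

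The scaling between the arrays is unknown, and the smaller gasdermin differences depend on it. Setting both arrays to the same median moved every log2 difference by -0.08, and centring on 7 control genes, whose median log2 difference was -0.10, raised it. The 18 hybridization spike-in probe sets all read higher for KO (median log2 difference 0.50), and centring on them lowered the log2 difference of Gsdmc2 to 0.97, just short of 2-fold, while those of Gsdme went to -1.16 and -1.58. Under this scaling the probe sets of Gsdmc2 with Gsdmc and of Gsdmc2 with Gsdmc4 stood at 0.32 and 0.13, and those of Gsdmd, Gsdmcl2, and Gsdma2 fell below 0. The signs of Gsdmc2, Gsdmcl-ps, and Gsdme were the same under all 5 scalings. Their differences as deposited all exceeded 0.50 in size, so the constant shifts applied were too small to turn them.

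**Figure D4:**
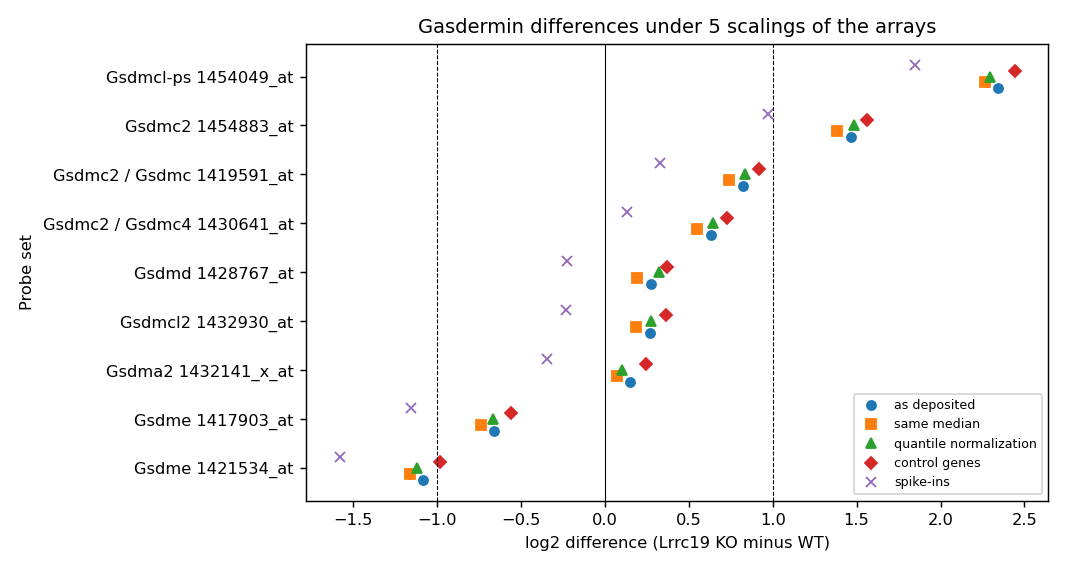
Log2 difference (Lrrc19 KO minus WT) of the 9 gasdermin probe sets that reached the floor, under 5 scalings of the arrays. Each point compares 1 array per genotype, without error bars. Dashed lines mark 2-fold. Gsdmc2 lies between 0.97 and 1.56, and both probe sets of Gsdme lie below 0 throughout. Gsdmcl-ps is drawn at measured differences against a WT value under the floor, so its position is not a size.

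Marker genes describe what the pools held. Lrrc19 itself was lower in the KO pool, at 905 in WT and 212 in KO on its brighter probe set. On its other probe set it was at 391 in WT and 20.9 in KO, the latter under the floor. All 7 epithelial markers reached the floor, with a summed intensity of 63540 in WT and 68915 in KO. All 5 smooth muscle markers also reached it, with 38725 and 51496, and these are not genes of epithelium. Of the markers of squamous epithelium, a tissue known for Gsdma, 9 of 19 reached the floor (summed 2172 and 2255), and Krt5 and Krt14 did not. Of the neutrophil markers 1 of 5 reached it (349 and 361), and the 6 T cell markers summed to 1525 and 1499. The 6 macrophage and dendritic cell markers, of which 4 reached the floor, summed to 4698.5 and 3813, with Adgre1 at 606 and 363. Of 5 B and plasma cell markers 4 reached it (9521 and 9233). Regional markers also differed between the pools. At least 2-fold higher in KO were 0.559% of all 12518 genes at the floor, and 0.407% were at least 2-fold lower. Of 6 colon markers, 3 were at least 2-fold higher in KO. They were Hoxd13 (42.4 in WT, under the floor, and 255 in KO), Hoxb13 (259 and 738), and Aqp8 (2019 and 4873). The other probe set of Hoxd13 stayed below the floor in each pool (70.5 and 57.0). Car4 (6274 and 8359) and Slc37a2 (225 and 367) were higher by less, and Car1 was lower (22420 and 18909). The 6 summed to 31239.5 and 33500.5, of which Car1 made up most, and their median log2 difference was 0.99. The 3 ileum markers summed to 1189 and 737 and were all lower, with Osr2 past 2-fold on its brighter probe set (472 and 215). Over its 2 probe sets, the log2 difference of Osr2 ran from -1.14 to 0.17. The 5 goblet cell markers summed to 45179 and 35852, and the 5 tuft cell markers to 1022 and 1082. The ratio of the 3′ to the 5′ control probe set, a sign of RNA integrity, was higher in KO for the transferrin receptor (4.14 in WT and 5.89 in KO) and Gapdh (1.26 and 1.5) and alike for beta-actin (1.75 and 1.77). The part of RNA integrity and of these other cells and regions in the differences of the gasdermins, granzymes, and inflammasome genes was not tested, and fewer cells of a type and less RNA per cell cannot be told apart in pooled RNA.

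Genes whose levels lay nearest to those of the leading gasdermins were found by the distance of their log2 levels in both pools, a measure over 2 arrays only. For Gsdmcl-ps they were Zbtb16 (111 in WT and 461 in KO, distance 0.40), Gpr137b-ps (122 and 398), and 9030619P08Rik (126 and 445). Fabp3 (102 and 267) and Ptbp2 (134 and 322.5) came next. All of these but Ptbp2 were, like Gsdmcl-ps, under the floor in WT, so their distances rest in part on signal below it. For Gsdmc2, added after its values were seen, the nearest was the acute-phase protein gene Saa1 (5585 and 11265, distance 0.33). Then came the chloride-bicarbonate exchanger Slc26a3 of the colon surface (4525 and 8844). The smooth muscle genes Cnn1 (5995 and 8799) and Myh11 (5685 and 8349) and the mucosal glycoprotein gene Dmbt1 (7408 and 13384) followed.

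Genes that act around gasdermins were described from lists, by the brightest probe set of each gene. Over all 12518 genes at the floor, 0.559% were at least 2-fold higher and 0.407% at least 2-fold lower in KO, with a median log2 difference of 0.01. Among the proteases that cut gasdermins, 6 of 8 measured reached the floor, 2 were lower, and none was higher, with a median of -0.49. Both granzymes that lymphocytes deliver to target cells were the lower ones, Gzmb with 420 in WT against 184 in KO (2.29-fold lower) and Gzma with 1278 against 587 (2.18-fold lower). Gzma is read from a single probe set of a kind that can match several transcripts. The others with the largest differences were the executioner caspase Casp6 (833 and 505), the inflammatory caspases Casp1 (3201 and 2680) and Casp4 (998 and 1087), and the death receptor caspase Casp8 (2017 and 2087). Casp6 had a log2 difference of -0.24 on its other probe set (138 in WT and 117, under the floor, in KO). The neutrophil proteases Elane and Ctsg were under the floor in both pools.

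Of 13 inflammasome sensors and adaptors measured, 10 reached the floor and none of these passed 2-fold (median 0.13). Among these 10, the nucleic acid sensor Zbp1 differed most (1591 in WT and 944 in KO, log2 difference -0.75, and -0.18 on its other probe set). Next were the flagellin receptor family member Naip6 (591 and 877, 0.57), the adaptor Pycard (6503 and 4608, -0.50), and Nlrp9b (125, under the floor, and 176). None of 6 cytokines and rupture genes at the floor passed 2-fold either (median -0.07). These were led by the IL-18 antagonist Il18bp (213 and 151) and by Il18, which leaves cells through GSDMD pores (979 and 1334, 1.36-fold higher). Ninj1, which ruptures the membrane after pores form (1039 and 869), and the IL-1 receptor antagonist Il1rn (217 and 205) came next. Over their several probe sets, log2 differences ran from -0.26 to 0.10 for Ninj1 and from -0.08 to 0.33 for Il1rn.

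The genes of ESCRT-III membrane repair, whose products help to shed membrane that carries pores, lay around 0 in the values as deposited. Their median log2 difference was -0.0030, and none of 15 passed 2-fold. Chmp6 (1294 in WT and 909 in KO), Chmp2a (2146 and 1534), Chmp3 (973 and 780), and Tsg101 (1221 and 984) differed most. Over its 3 probe sets, the log2 difference of Chmp3 ran from -0.32 to 0.21. None of 5 regulators of Gsdmd passed 2-fold (median -0.14). They include the transcription factors Irf2 (817 and 965) and Irf1 (2627 and 3080), the GTPase Gbp2 (732 and 604), and the palmitoyltransferase Zdhhc5 (637 and 563). On its other probe set Zdhhc5 had a log2 difference of 0.06.

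Genes of the type 2 response, which is known to raise Gsdmc copies, did not pass 2-fold. Of 18 measured, 12 reached the floor, with a median log2 difference of 0.05. Those that differed most were the mucosal mast cell protease Mcpt1 (97.0 in WT, under the floor, and 161 in KO) and the antimicrobial ribonuclease Ang4 (6319 and 8522). On its other probe set Ang4 was alike in both pools (1239 and 1302). Next were the receptor chain Il13ra1 (465 and 384) and the tuft cell factor Pou2f3 (125 in WT, also under the floor, and 141 in KO). Late surface colonocyte genes had 2 of 16 at least 2-fold higher and none lower, with a median of 0.10. The higher ones were Atp12a, a proton pump subunit of the distal colon (531 and 4760.2, 8.96-fold higher), and the water channel Aqp8 (2.41-fold higher). Next to them was Slc26a3 (1.95-fold higher). Its log2 differences ran from 0.81 to 2.60 over its 4 probe sets, the largest against a WT value under the floor (50.8). Slc37a2 (225 and 367), Car4 (6274 and 8359), and Mall (2293 and 2916) followed. Most of this list lay near 0, with the surface keratin Krt20 at 8894 and 10333. Atp12a, Aqp8, Slc26a3, and Gsdmc2 were all higher in the same pool, and on 2 arrays this says no more than that.

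**Figure D5:**
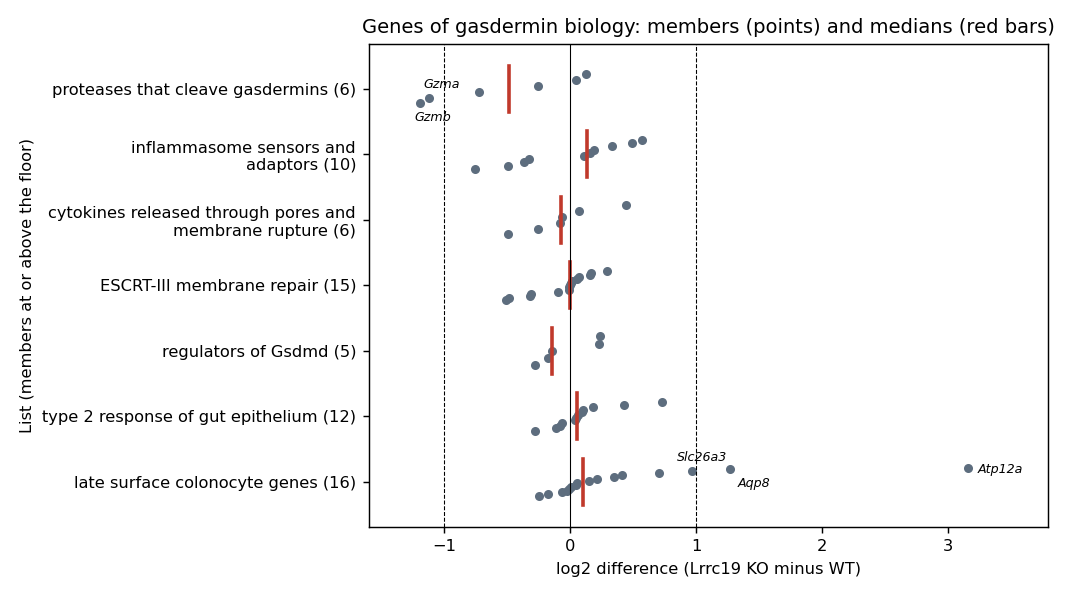
Log2 difference (Lrrc19 KO minus WT) of the genes at or above the floor (points) in 7 lists of gasdermin biology, with list medians (red bars) and 1 array per genotype. Dashed lines mark 2-fold. Gzma and Gzmb lie to the left of them, and Aqp8 and Atp12a to the right.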

How the data were processed

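Intensities of 2 Affymetrix arrays were used, 1 for each genotype, each from RNA pooled from 5 mice. The intensity values deposited by the authors are linear. They range from 1 to 25842, and their median is 124 in WT and 131 in KO. RMA, without a version, appears in the submitters' processing notes, yet RMA usually gives log2 values of 1 common distribution, so how the arrays were scaled is unknown. A constant scaling error would shift every log2 difference alike.

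Log2 was taken, after raising values below 1 to 1, with Python 3.11.15, pandas 2.3.3, and numpy 2.4.6. Of 45101 probe sets, 64 controls were left out, 34945 carried 1 gene symbol, 932 several, and 9160 had none in the annotation used. Current symbols came from RefSeq GRCm38.p6 by gene identifier (34741 found), and the 4 Gsdm probe sets of several genes were kept. As a floor the 50th percentile of all values was taken. A gene was its probe set with the highest mean. No test between the genotypes was run, and precision is limited by the number of arrays. Genes named are all Gsdm probe sets, list members past 2-fold, and up to 4 others per list. The members, lists, and alternatives were chosen with earlier results of these data known. Of 175 list entries, 159 were measured, and a list of relatives under other symbols held only Gsdme and was left out.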

Additional observations from a re-analysis of the deposited data

How the results depend on the processing

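No paired analysis was possible because each genotype had 1 pool. Alternatives were other scalings of the arrays, other floors, other ways of choosing probe sets, and a pseudocount of 16, and centring on the spike-ins was chosen after seeing the data. A list median was counted as changed when it moved by over 0.27, the robust SD over genes, and a count when it moved by over 1.5 times. Of 184 alternative values for counts and list medians, 170 stayed within these limits. Many of them are counts that stayed at 0, or medians under shifts smaller than the limit, so this share says little about robustness. Also within the limits were colonocyte genes higher (3 instead of 2 with the control genes or the mean of all probe sets). So were proteases lower (3 instead of 2 with the spike-ins). Of the 2 Gsdm probe sets at least 2-fold higher, 1 remained so with the spike-ins (Gsdmcl-ps). The 1 lower became 0 with the control genes, 0 with the floor at the 75th percentile, which the dimmer Gsdme probe set did not reach, and 2 with the spike-ins. With the spike-ins, which lower every difference by 0.50, the list medians were -0.50 for ESCRT-III, -0.57 for the cytokines, -0.36 for the sensors and adaptors, -0.40 for the colonocyte genes, -0.64 for the regulators, and -0.44 for the type 2 response, 1 ESCRT-III gene and 1 sensor became lower, and 1 colonocyte gene stayed higher. Without probe sets that can match several transcripts, 1 protease was lower instead of 2. No sign of a gasdermin past 2-fold turned, but the largest constant shift applied, 0.50, is too small to turn one. With its WT value set to the floor, Gsdmcl-ps was at 1.76. Signal near the floor limits Gsdmcl-ps, the Gsdma branch, and the dimmer Gsdme probe set (149 in KO).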
